A study of Mus musculus with 9 samples.

Results

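Chemokines and their receptors were described in 9 mouse kidney RNA sequencing libraries, 3 from mice of each of the genotypes C59A, C59S and wild type (WT). The set was chosen by name from the deposited gene table, as the protein-coding rows for the families Ccl, Ccr, Cxcl, Cxcr and Ackr followed by a number, together with Cx3cl1, Cx3cr1, Xcl1, Xcr1 and Ccrl2. It held 68 rows of 52636 genes. C59A and C59S are knock-in alleles of Nfkb1, which encodes a precursor that is processed to p50, a DNA-binding NF-kB subunit, and each changes the codon of the same cysteine. Per the labels, both alleles are germline changes made in C57BL/6NTac-derived embryonic stem cells, and their targeting construct placed a PGK-neo cassette in a nearby intron. WT mice are those without a knock-in allele, and no treatment is listed for any group. Whether the knock-in mice had 1 or both copies changed is not given in the sources used here. The labels call C59A activated and C59S inactivated, but their account of DNA binding runs the other way round, so no direction was assumed. Age, sex, litter and whether each library came from a different animal are not given in the sources used here, so the p-values measure the spread between these libraries.

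Chemokines are small secreted proteins that steer leukocytes along gradients by binding receptors that couple to inhibitory G proteins. Atypical receptors bind chemokines without that signal and remove or carry them. Many inflammatory chemokine genes are classical NF-kB targets, while other family members are made constitutively by epithelium, vessels or stroma and position resident cells. In the kidney, tubule epithelium, endothelium, fibroblasts and resident macrophages are all known sources.

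The libraries held 16367403 to 25787659 counted reads. Nfkb1 itself stood at 39.7, 31 and 29.2 CPM (counts per 1000000 of the library total after TMM scaling) in C59A, at 39.6, 37.4 and 36.9 CPM in C59S and at 32.2, 33.8 and 36.8 CPM in WT, and passed in no comparison (edgeR adjusted p of 0.896 for C59A against WT, 0.567 for C59S against WT and 0.416 for C59A against C59S). The counts do not show the codon. Kidney markers were abundant in every library, at 8182, 8108 and 8910 CPM summed over 9 genes in C59A, at 8308, 8638 and 8236 CPM in C59S and at 11803, 13061 and 11328 CPM in WT. The 3 C59A libraries held reads of the Y-linked genes Ddx3y, Eif2s3y, Kdm5d and Uty and 4 to 12 reads of Xist, whereas the C59S and WT libraries held 13268 to 29644 reads of Xist and at most 17 of any of these Y-linked genes. Genotype and sex therefore cannot be told apart in a comparison with C59A. Mitochondrial transcripts took 16.4% to 28.8% of the counts in 8 libraries and 40.6% in C59S replicate 3. Fewer cells of a type and less RNA per cell cannot be told apart in whole-kidney RNA.

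Of the 68 rows, 37 had enough reads to be tested and 31 did not. Tested rows held 54 to 27106 reads over all libraries. The untested ones held 0 to 82, with a median of 9, and 4 of them had no read at all. Counts of genes that passed the filter say nothing of those that did not. The tested rows included 9 of 12 inflammatory CC ligands, 1 of 5 CXC ligands of neutrophils, both Cxcr3 ligands, 5 of 7 other CXC, CX3C and XC ligands, 5 of 18 homeostatic and lymphocyte CC ligands, 5 of 11 CC receptors, 6 of 8 CXC, CX3C and XC receptors, and 4 of 5 atypical receptors. Cxcl11, another Cxcr3 ligand, was not analysed here. The rows came from 62 distinct symbols. The 7 rows on unplaced scaffolds are copies of Ccl19, Ccl21a, Ccl21b, Ccl21c and Ccl27a that resemble those on chromosome 4, so reads may be split among them and their values are uncertain.

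A few constitutive genes made up most of the chemokine signal. The set as a whole reached 416, 505 and 336 CPM in C59A, 480, 576 and 478 CPM in C59S, and 376, 317 and 493 CPM in WT. The deposited FPKM scale (fragments per kilobase of gene and 1000000 reads, with the authors' own library scaling) allows levels of different genes to be compared. On it Cxcl14 led with a mean of 20.6 FPKM over the 9 libraries, above 90.6% of protein-coding genes. Cx3cl1 and Cxcl12 followed with 17.6 FPKM each. Cxcl16 averaged 11 FPKM, Ccl27a 10.8 FPKM and Ackr3 9.47 FPKM, and Ccl5 came next with 4.21 FPKM. These first 6 genes took 74.9% to 82.7% of all chemokine and receptor reads in each library.

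**Figure D1:**
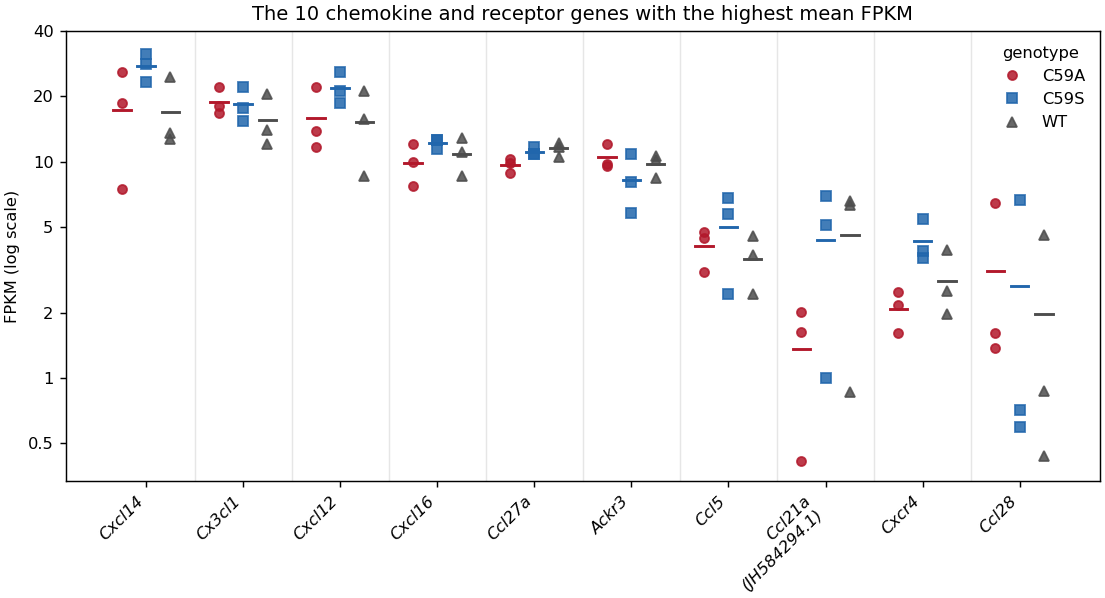
Deposited FPKM on a log scale for the 10 chemokine and receptor genes with the highest mean, with 1 point per library (C59A, C59S and WT from left to right within each gene) and the genotype mean as a line. The 6 leading genes average 9.47 to 20.6 FPKM, and Ccl28 has 1 high library in each genotype.

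The leading epithelial and stromal ligands overlapped between genotypes. Cxcl14, a chemokine of epithelia, stood at 18.6, 26 and 7.44 FPKM in C59A, at 23.2, 31.5 and 28.1 FPKM in C59S and at 12.7, 13.5 and 24.5 FPKM in WT. The C59A libraries were spread most widely and held the lowest value, C59S replicates 2 and 3 were the highest, and all groups overlapped. Cx3cl1 encodes fractalkine, a ligand that is tethered to the membrane of tubule and endothelial cells until it is shed. It measured 22, 16.7 and 18.1 FPKM in C59A, 15.5, 22.1 and 17.7 FPKM in C59S and 12.1, 14.1 and 20.6 FPKM in WT. Its highest value in each genotype came close to that of the others. Cxcl12, the stromal ligand of Cxcr4, stood at 13.8, 22.1 and 11.7 FPKM in C59A, at 21.1, 25.9 and 18.6 FPKM in C59S and at 15.8, 8.58 and 21.3 FPKM in WT. Its C59S values were the highest on average (21.9 ± 3.72 FPKM, SD, n = 3), but overlapped with both other groups.

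Cxcl16, the membrane-bound ligand of Cxcr6, and Ccl27a, a ligand of Ccr10, were among the steadiest genes of the set. Between the highest and the lowest library, CPM differed by a factor of 1.70 for Cxcl16 and of 1.38 for Ccl27a. Ccl27a stood at 24.8, 21.4 and 23.2 CPM in C59A, at 26.3, 27.8 and 26 CPM in C59S and at 29.6, 25.6 and 28.3 CPM in WT. The C59A libraries were all below the other 6, by a log2 fold change of -0.27 ± 0.11 (SE) against WT, which did not pass (edgeR adjusted p = 0.199). The spans of both genes overlap those of other coding genes (Zmynd15 for Cxcl16, Il11ra1 for Ccl27a), and the strand setting of the counting is not given in the sources used here. The same holds for Ccl25, Ccl2, Cxcl10, Cxcr6, Cx3cr1, Ackr4 and Ccr10 among the tested rows.

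Ccl28, the mucosal ligand of Ccr10 and Ccr3, behaved unlike any of these. It stood at 7.9, 31.6 and 6.67 CPM in C59A, at 32.8, 3.47 and 2.9 CPM in C59S and at 22.7, 4.32 and 2.14 CPM in WT. Each genotype thus had 1 library far above its other 2, and the highest and lowest of the 9 libraries differed 15.3-fold. No fold change between genotypes exceeded its standard error (0.65 ± 1.29 for C59A against WT on the log2 scale).

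Across all tested rows, 1 of the 37 passed edgeR's quasi-likelihood test at an adjusted p under 0.05 in 1 of the 3 comparisons. In C59A against WT none did, beside 5.7% of the 17114 genes tested. In C59S against WT none did, beside 0% of genes. In C59A against C59S 1 did, Cxcl9, beside 5.91% of genes. At an unadjusted p under 0.05 the counts were 5, 6 and 6 of 37 (13.5%, 16.2% and 16.2%), against 21%, 18.1% and 22.9% of all genes in the same order of comparisons. With the title number as a block, the count in C59S against WT was 10 of 37 (27%, beside 19.4% of genes) in all 9 libraries. In the 6 libraries of these genotypes it was 13 of 34 (38.2%, beside 25.4% of genes). The share of the members was thus above that of the whole table with the block and below it without. No label says what a title number shares, and the numbers in the column names mostly differ from it. The block is therefore an uncertain pairing, and nothing is concluded from that change. DESeq2 called Cxcr2 in C59A against WT (beside 8.66% of genes), Ccl11 in C59S against WT (3.8%) and Ccrl2, Cxcl9 and Cxcr4 in C59A against C59S (9.99%). Voom called Cxcr2 in C59A against WT (6%), none in C59S against WT (0%) and the same 3 in C59A against C59S (10.4%). Each pair of these comparisons shares the 3 libraries of 1 genotype. Leaving out 1 library moved the log2 fold change by over 1.5 times or turned its sign for 33, 32 and 30 of the 37 in C59A against WT, C59S against WT and C59A against C59S. Most fold changes that were not called thus shift with single libraries. Small fold changes reach this measure easily, and it was not taken over all genes, so it does not set the members apart.

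The filter asked for about 10 reads at the median depth (0.526 per 1000000 counted reads) in at least 3 libraries. No WT library reached that level for Ccl8, Ccl11 and Cxcr2, and Cxcr2 reached it in the C59A libraries alone. These 3 were therefore tested only because knock-in libraries were high, and their fold changes against WT are given as a description.

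Medians and signs describe the 37 rows that passed the filter. The median log2 fold change of the 37 was 0.59 in C59S against WT (all genes 0.01), with 30 of 37 positive (51.1% of all genes). It was -0.42 in C59A against C59S (all genes -0.01), with 8 of 37 positive (49% of all genes). In C59A against WT it was 0.09 (all genes -0.02), with 22 of 37 positive (47.6% of all genes). In C59S against WT the median of these rows kept its sign in every alternative, from 0.34 with the FPKM values to 0.79 without WT replicate 3. It was 0.41 without C59S replicate 3, the library with the high mitochondrial share, and 0.59 over the 64 rows with any read when no filter was set, with 49 of 64 positive. In C59A against C59S, which shares the C59S libraries, the median was -0.65 without C59A replicate 2, -0.61 without C59S replicate 1 and -0.28 without C59S replicate 3, and 13 of the 38 rows tested without that library were positive. The median in C59A against WT was -0.02 without WT replicate 1. With library totals alone as the scale, the all-gene median was -0.26 in C59A against WT, -0.19 in C59S against WT and -0.05 in C59A against C59S, and that of these rows was -0.14, 0.37 and -0.43 in the same order.

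**Figure D2:**
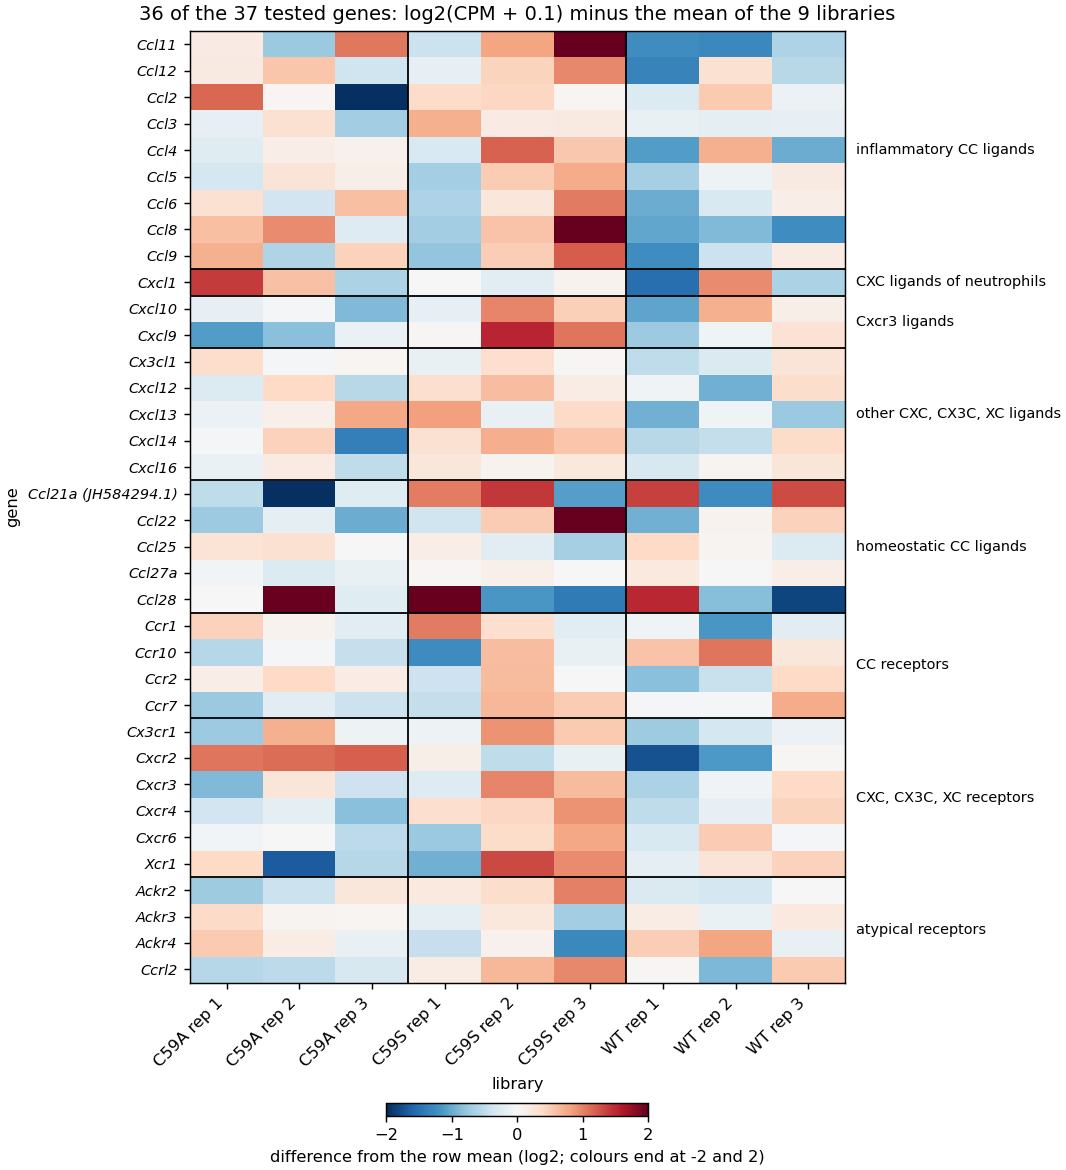
Differences from the row mean of log2(CPM + 0.1) for 36 of the 37 tested genes in each of the 9 libraries, with C59A on the left, C59S in the middle and WT on the right, and genes ordered by role. Red is above and blue below the mean over all libraries, and colours end at -2 and 2. C59S replicate 3 is deepest red for Ccl8, Ccl11 and Ccl22, and Ccl28 and the scaffold copy of Ccl21a change between libraries of the same genotype.

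Those shifts ran beside markers of other cells. Summed endothelial markers (8 genes) stood at 586, 643 and 542 CPM in C59A, at 912, 876 and 1188 CPM in C59S and at 582, 303 and 796 CPM in WT. All C59S libraries were above the other 6. Summed macrophage markers (10 genes) stood at 203, 313 and 162 CPM in C59A, at 231, 281 and 257 CPM in C59S and at 155, 198 and 170 CPM in WT. Fibroblast and pericyte markers (7 genes) stood at 275, 360 and 212 CPM in C59A, at 244, 398 and 491 CPM in C59S and at 226, 162 and 317 CPM in WT. In all 3 lists the C59S group had the highest mean, and every tested marker gave a positive fold change in C59S against WT. Not every list did so, since 2 of 4 dendritic cell markers were positive there (median log2 fold change 0.04). Of the lymphatic endothelial markers 4 of 4 were. In C59S against WT none passed in edgeR or voom, while 5 endothelial, 4 macrophage and 2 fibroblast and pericyte markers, of 8, 10 and 7, had an unadjusted p under 0.05 in edgeR (18.1% of all genes) and DESeq2 called 4, 1 and 1 (3.8% of all genes). The summed kidney markers ran the other way, with all 6 knock-in libraries below WT. In C59A against WT 3 of these 9 were called lower (Slc12a3, Nphs1 and Atp6v1b1), beside 5.7% of all genes called. Of the 3, Slc12a3 was lost without C59A replicate 1 and Nphs1 without C59A replicate 3 or WT replicate 1 or 3 (edgeR adjusted p of 0.0503 to 0.066). In C59S against WT none of the 9 passed in edgeR or voom, 4 had an unadjusted p under 0.05 in edgeR and DESeq2 called 3, and their median log2 fold change was 0.03 although the sum was lower. Adipocyte markers (6 genes) separated libraries within genotypes, at 46.4, 1.25 and 137 CPM in C59A, at 3.76, 300 and 626 CPM in C59S and at 0.553 to 1 CPM in WT. In C59A against C59S 7 of 8 endothelial, 0 of 10 macrophage, 2 of 7 fibroblast and pericyte and 2 of 4 lymphatic markers had an unadjusted p under 0.05 in edgeR (22.9% of all genes). Of these lists edgeR called Pecam1, Cdh5, Lum and Mmrn1, all lower in C59A, beside 5.91% of all genes. Each call was lost without C59A replicate 1 or 3 or C59S replicate 2 or 3. The part of all these cells in the chemokine values was not tested.

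The inflammatory CC ligands recruit monocytes, eosinophils and activated T cells. The 9 that were tested all lie on chromosome 11 (GRCm38), in 2 groups of neighbours. Ccl2, Ccl11, Ccl12 and Ccl8 lie between 82035571 and 82116799, and Ccl5, Ccl9, Ccl6, Ccl3 and Ccl4 between 83525778 and 83664683. None passed in any comparison in edgeR or voom. At an unadjusted p under 0.05 edgeR had 1 in C59A against WT (Ccl8), 2 in C59S against WT (Ccl8 and Ccl11) and 0 in C59A against C59S, of 9 each, beside 21%, 18.1% and 22.9% of all genes. All 9 fold changes against WT were positive in C59A (median 0.56 on the log2 scale) and in C59S (median 0.90), and all 9 were negative in C59A against C59S (median -0.35). The counts rest on single libraries in part, since 6 of 9 were positive in C59A against WT without WT replicate 1 or with library totals alone, and 5 of 9 in C59A against C59S without C59S replicate 3. The medians moved as well. That in C59A against WT was 0.27 without WT replicate 1, 0.38 without C59A replicate 2, 0.32 with library totals alone and 0.26 over the 7 genes left when these 2 genotypes were fitted alone. That in C59A against C59S ran from -0.62 without C59A replicate 2 to 0.01 without C59S replicate 3. Ccl8 and Ccl11 are among these 9 and passed the filter through knock-in libraries alone.

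Within these ligands, Ccl8 and Ccl11 had the largest fold changes and few reads. Ccl8, which acts on Ccr8 in the mouse, had 10, 14 and 6 reads in C59A, 5, 13 and 26 in C59S and 3, 3 and 2 in WT. Both knock-in groups lay above WT in every library, at 0.286 to 0.792 CPM in C59A and 0.186 to 1.75 CPM in C59S, against 0.0952 to 0.151 CPM in WT. Its log2 fold change was 2.11 ± 0.85 (SE) in C59A against WT and 2.62 ± 0.83 in C59S against WT, with edgeR adjusted p of 0.183 and 0.168. Neither passed, and without C59S replicate 3 that in C59S against WT was 1.57. Ccl11, eotaxin, the ligand of the eosinophil receptor Ccr3, had 12, 6 and 30 reads in C59A, 12, 26 and 53 in C59S and 5, 4 and 8 in WT. The C59S libraries lay above WT without overlap (0.447, 1.17 and 3.57 CPM, against 0.21, 0.201 and 0.381 CPM), and C59S replicate 3 was the highest. The log2 fold change of Ccl11 in C59S against WT was 2.64 ± 0.79 and did not pass (edgeR adjusted p = 0.156), although DESeq2 gave an adjusted p of 0.0291. Without C59S replicate 3 it was 1.59.

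Ccl5 was the most abundant of the group, at 3.02, 4.64 and 4.24 CPM in C59A, at 2.39, 5.54 and 6.54 CPM in C59S and at 2.4, 3.62 and 4.43 CPM in WT. The 3 groups overlapped throughout. Ccl6 and Ccl9, a pair of rodent ligands of Ccr1, reached 7.01 and 6 CPM in C59S replicate 3, their highest library, and overlapped between genotypes elsewhere. Ccl3, a ligand of Ccr1, was at 1.3, 0.856 and 0.876 CPM in C59S, against 0.673, 0.653 and 0.667 CPM in WT, without overlap but with a log2 fold change of only 0.62 ± 0.41 (edgeR adjusted p = 0.444). Ccl2, the main monocyte attractant and a classical NF-kB target, measured 2.29, 1.02 and 0.143 CPM in C59A, 1.3, 1.35 and 1.01 CPM in C59S and 0.8, 1.46 and 0.905 CPM in WT. The C59A libraries of Ccl2 held both the highest and the lowest value of the gene, with log2 fold changes of 0.11 ± 0.66 for C59A and 0.23 ± 0.65 for C59S against WT. Among the untested ligands Ccl7 had 50 reads in all, Ccl24 31 and Ccl26 none.

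The CXC ligands that attract neutrophils were near the limit of detection. Cxcl1 was the only one tested, at 2.83, 1.58 and 0.619 CPM in C59A, at 1.01, 0.856 and 1.08 CPM in C59S and at 0.295, 2.06 and 0.619 CPM in WT. The C59A and WT libraries overlapped, and the C59S libraries lay within the WT range. The log2 fold change was 0.76 ± 0.67 in C59A against WT and -0.002 ± 0.70 in C59S against WT (edgeR adjusted p of 0.566 and 0.999). Single libraries set these values, since that in C59A against WT was 0.16 without C59A replicate 1, 0.32 without WT replicate 1 and 1.86 without WT replicate 2, and that in C59S against WT was -0.45 without WT replicate 1 and 1.10 without WT replicate 2. Cxcl2 had 37 reads over all 9 libraries, Cxcl5 8, Cxcl3 2 and Cxcl15 1.

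Promoter windows are shown for members with low or contrasting levels. Of these, 3 have a letter match to a strict spelling of the kappaB motif that NF-kB dimers bind, and 2 are from the Cxcr3 ligand genes. The windows are the 250 bases before the RefSeq start of each gene in GRCm38.p6, at chr5:90890995-90891244 (plus strand) for Cxcl1, chr5:90903649-90903898 (plus) for Cxcl2, chr11:83578637-83578886 (minus) for Ccl9, chr5:92328080-92328329 (minus) for Cxcl9 and chr5:92348890-92349139 (minus) for Cxcl10. Capitals mark matches on either strand to a kappaB motif, spelled GGG, then 2 bases of any kind, then TTTCC, or to an interferon response motif, spelled TTTC, then 2 bases of any kind, then TTTC. Matches to the 2 motifs do not overlap in these windows.
Cxcl1: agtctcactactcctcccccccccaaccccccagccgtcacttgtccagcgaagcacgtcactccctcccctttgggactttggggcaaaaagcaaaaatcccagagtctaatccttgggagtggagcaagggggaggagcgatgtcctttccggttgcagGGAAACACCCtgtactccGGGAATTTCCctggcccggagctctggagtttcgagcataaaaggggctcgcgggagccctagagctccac
Cxcl2: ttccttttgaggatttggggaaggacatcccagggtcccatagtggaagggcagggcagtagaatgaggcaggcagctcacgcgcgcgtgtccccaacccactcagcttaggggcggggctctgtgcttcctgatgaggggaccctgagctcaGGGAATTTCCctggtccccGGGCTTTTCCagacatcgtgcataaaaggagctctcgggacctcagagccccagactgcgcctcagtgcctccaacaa
Ccl9: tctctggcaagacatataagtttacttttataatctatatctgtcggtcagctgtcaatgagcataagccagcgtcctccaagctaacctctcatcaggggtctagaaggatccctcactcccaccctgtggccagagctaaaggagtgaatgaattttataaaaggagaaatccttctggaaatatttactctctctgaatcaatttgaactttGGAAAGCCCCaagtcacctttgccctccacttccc
Cxcl9: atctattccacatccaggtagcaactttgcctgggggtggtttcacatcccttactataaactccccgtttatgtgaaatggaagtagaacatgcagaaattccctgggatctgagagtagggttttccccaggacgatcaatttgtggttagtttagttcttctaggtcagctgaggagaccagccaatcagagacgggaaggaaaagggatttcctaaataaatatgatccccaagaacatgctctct
Cxcl10: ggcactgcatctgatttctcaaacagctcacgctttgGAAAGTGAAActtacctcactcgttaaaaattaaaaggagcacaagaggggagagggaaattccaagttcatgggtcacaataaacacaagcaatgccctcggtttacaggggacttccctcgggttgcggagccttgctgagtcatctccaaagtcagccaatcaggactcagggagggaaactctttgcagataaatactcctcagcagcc
Cxcl1 and Cxcl2 each held 2 matches to the kappaB motif, beginning 89 and 71 bases before the start of Cxcl1 and 97 and 78 before that of Cxcl2, and Ccl9 held 1, beginning 35 bases before its start. Cxcl10 held 1 match to the interferon response motif, beginning 213 bases before its start, and the Cxcl9 window held neither set of letters. A window without the strict kappaB spelling can still hold looser forms of that motif, which are not in capitals.

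RefSeq windows of the 250 bases before a start were found for 47 of the 62 member symbols. Some symbols have several windows, and the 47 have 56. The kappaB motif occurred in 6 of the 56 (10.7%), those of Ccl20, Ccl9, Ccr3, Cxcl1, Cxcl2 and Cxcl3, and in 1.41% of the 32851 windows of all genes. Only Ccl9 and Cxcl1 of the 6 had enough reads to be tested. A looser form, GGG and CC with 5 bases of any kind between them, contains every match of the stricter one and occurred in 29 of the 56 (51.8%) and in 45.8% of all windows. The windows of Cxcl9 and Cxcl10 held this looser form too, as did those of Cxcl1, Cxcl2 and Ccl9. In the Cxcl10 window its matches include gggaaattcc and ggggacttcc, so the lack of a strict match there does not mean that no kappaB letters are present. The interferon response motif occurred in 3 of the 56 (5.36%), those of Ccl19, Cxcl10 and Cxcl14, and in 2.98% of all windows. These are letter matches and were not measured as binding.

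Cxcl9 was the 1 gene of the set with a called difference. Cxcl9 and Cxcl10 are interferon-induced ligands of Cxcr3, the receptor of activated T and NK cells. Cxcl9 had 15, 20 and 40 reads in C59A, 57, 137 and 67 in C59S and 29, 39 and 54 in WT, or 0.905, 1.13 and 1.9 CPM in C59A, 2.12, 6.17 and 4.52 CPM in C59S and 1.22, 1.96 and 2.57 CPM in WT. Every C59A library lay below every C59S library, and the WT libraries overlapped with both. Cxcl9 was lower in C59A than in C59S, with a log2 fold change of -1.68 ± 0.45 (SE), with edgeR adjusted p = 0.0492. The call stood at the threshold. It was kept in 8 of 21 alternatives and lost in 13, among them leaving out C59A replicate 1, 2 or 3 (adjusted p of 0.175, 0.101 and 0.072), C59S replicate 2 or 3 (0.168 and 0.143) and WT replicate 1 or 2 (0.0575 and 0.0527) in edgeR, RLE factors (0.0505), the 2 genotypes fitted alone (0.0503) and no mitochondrial genes (0.0502). Its direction was the same in all 21.

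Cxcl9 did not pass against WT, with log2 fold changes of -0.53 ± 0.45 for C59A and 1.15 ± 0.43 for C59S (edgeR adjusted p of 0.558 and 0.209). Cxcl10 ran at 4.4, 4.87 and 2.62 CPM in C59A, at 4.4, 9.82 and 6.94 CPM in C59S and at 2.31, 8.19 and 5.38 CPM in WT. Its C59A libraries lay within the WT range, and its log2 fold change in C59A against C59S was -0.83 ± 0.45 (edgeR adjusted p = 0.302). Cxcr3, on chromosome X, was at 0.905, 2.09 and 1.29 CPM in C59A, at 1.45, 3.56 and 2.76 CPM in C59S and at 1.09, 1.66 and 2.33 CPM in WT, with a log2 fold change of -0.85 ± 0.44 in C59A against C59S (edgeR adjusted p = 0.276). For both ligands and the receptor C59S replicate 2 was the highest library. Summed T and NK cell markers (10 genes) stood at 12.2, 16.4 and 11.4 CPM in C59A, at 11.8, 18.2 and 24.1 CPM in C59S and at 11.1, 15.9 and 16.8 CPM in WT, with overlapping groups. None of the 9 tested markers was called in C59A against WT (5.7% of all genes), C59S against WT (0%) or C59A against C59S (5.91%). Their part in the Cxcl9 difference was not tested.

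**Figure D3:**
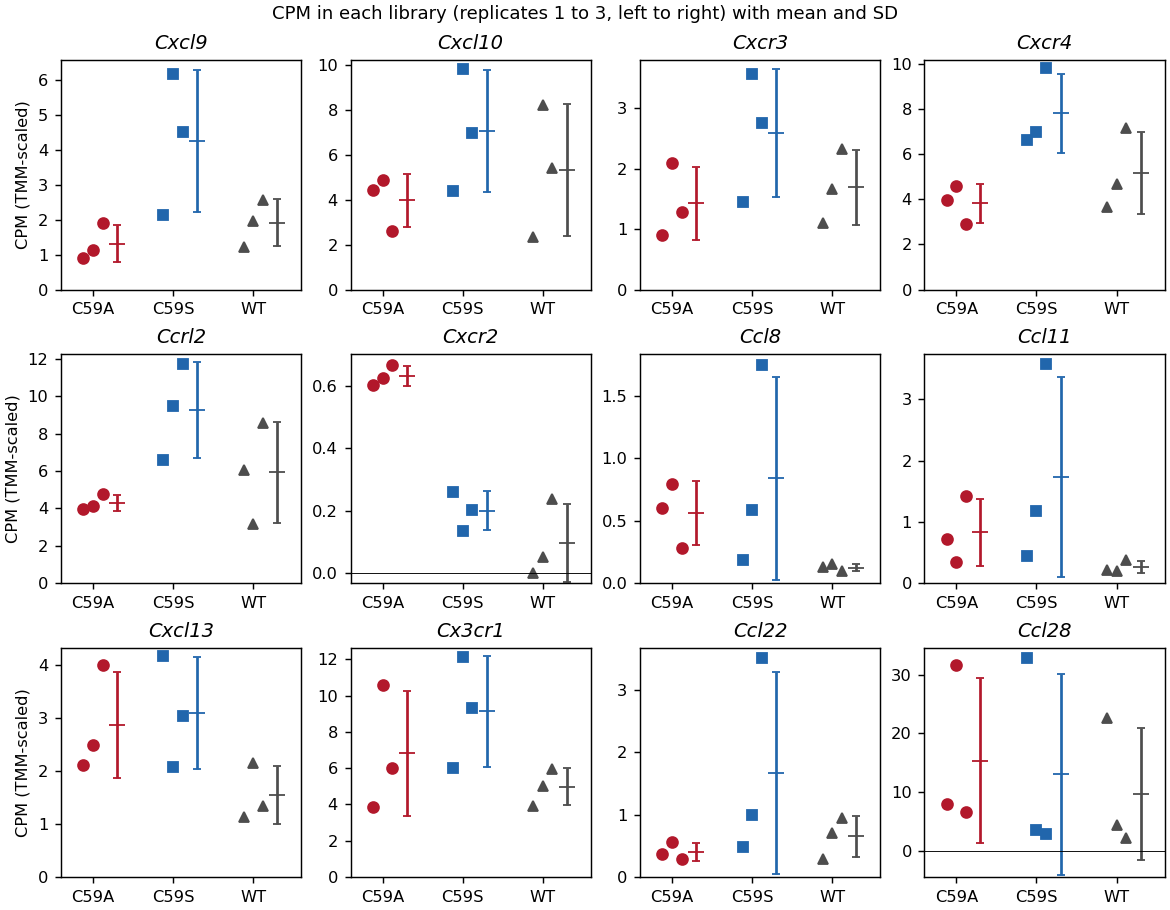
CPM of 12 chemokine and receptor genes in each library (points, replicates 1 to 3 from left to right) with the mean and SD of each genotype, in the order C59A, C59S and WT. Each panel has its own linear axis. Cxcl9, Cxcr4 and Ccrl2 are lower in every C59A library than in every C59S library, Cxcr2 is higher in every C59A library than in the other 6, and Ccl28 has 1 high library in each genotype.

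The remaining ligands position resident cells. Cxcl13, which attracts B cells through Cxcr5, stood at 2.11, 2.49 and 4 CPM in C59A, at 4.17, 2.07 and 3.03 CPM in C59S and at 1.14, 2.16 and 1.33 CPM in WT. Most knock-in libraries lay above WT, but WT replicate 2 overlapped with them. The log2 fold changes were 0.90 ± 0.38 for C59A and 1.01 ± 0.38 for C59S, and neither passed (edgeR adjusted p of 0.198 and 0.207). Ccl22, the ligand of Ccr4 from macrophages and dendritic cells, reached 52 reads and 3.50 CPM in C59S replicate 3, against 6 to 22 reads in the other 8 libraries. Its log2 fold change in C59A against C59S was -1.98 ± 0.73 (edgeR adjusted p = 0.135) and -0.86 without C59S replicate 3. The same library had the highest summed B and plasma cell markers, at 133 CPM against 18.5 to 63.5 CPM in the other 8. The scaffold copy of Ccl21a, a lymphatic ligand of Ccr7, had 11, 3 and 17 reads in C59A, 56, 62 and 6 in C59S and 64, 7 and 54 in WT. It was low in all C59A libraries and in 1 library of each other genotype, and the chromosome 4 copy had 11 reads in all.

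Among CC receptors, Ccr2, of inflammatory monocytes, was the most read, at 8.02, 9.68 and 8.14 CPM in C59A, at 5.48, 11.4 and 7.28 CPM in C59S and at 4.04, 5.33 and 9.67 CPM in WT. The groups overlapped, with a log2 fold change of 0.44 ± 0.33 in C59A and 0.34 ± 0.33 in C59S against WT. Ccr10 was lower in every C59A library than in WT (0.482, 0.736 and 0.524 CPM, against 1.18, 1.71 and 0.905 CPM), with a log2 fold change of -1.11 ± 0.53 (edgeR adjusted p = 0.258). Ccr7 likewise did not overlap between C59A and WT (0.482, 0.736 and 0.619 CPM, against 0.842, 0.854 and 1.52 CPM), with edgeR adjusted p = 0.348.

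Cxcr2, the receptor through which neutrophils answer Cxcl1 and its relatives, was tested only because the C59A libraries, where it was high, reached the filter. It had 10, 11 and 14 reads in C59A, 7, 3 and 3 in C59S and 0, 1 and 5 in WT. In CPM it stood at 0.603, 0.623 and 0.667 in C59A, at 0.261, 0.135 and 0.202 in C59S and at 0, 0.0502 and 0.238 in WT, where 3 reads correspond to 0.112 to 0.202 CPM. The C59A libraries lay close together and above the other 6. The log2 fold change was 2.68 ± 0.76 in C59A against WT and did not pass (edgeR adjusted p = 0.064), nor did that of 1.62 ± 0.68 in C59A against C59S (edgeR adjusted p = 0.185). It passed against WT with DESeq2 (adjusted p = 0.0496), with voom (0.0244) and in edgeR without WT replicate 3 (0.0229), which leaves a single WT read and a log2 fold change of 4.45. The stricter filter of 1 CPM in 3 libraries drops the gene. The voom and edgeR calls rest on its selection through C59A. DESeq2 was fitted to every row with a read, but gave an adjusted p only to the 17925 genes kept by its own filter on the mean count. C59A held 35 of the 54 reads of Cxcr2. The DESeq2 call, just under the threshold, is therefore not free of selection through C59A either.

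Neutrophil markers were also highest in C59A. Their sum over 8 genes stood at 16.9, 16.8 and 13.9 CPM in C59A, at 4.43, 4.55 and 8.49 CPM in C59S and at 2.65, 3.57 and 4.05 CPM in WT. Of the 4 tested, S100a8, S100a9 and Csf3r were called higher in C59A than in WT, beside 5.7% of all genes called in that comparison. S100a8 was lost without WT replicate 1 (edgeR adjusted p = 0.0504). In C59A against C59S S100a9 and Csf3r were called higher, beside 5.91% of all genes. Their log2 fold changes there were 1.98 ± 0.45 and 1.02 ± 0.25 (edgeR adjusted p of 0.0266 and 0.0375). That of S100a9 was lost without C59A replicate 1 or 3 or C59S replicate 1 or 2. That of Csf3r was lost without C59A replicate 1 or 2, any 1 C59S library or WT replicate 1. Mmp8, a neutrophil collagenase, had 4, 9 and 10 reads in C59A, 2, 0 and 1 in C59S and none in WT. Ly6g and Camp did not follow, and both were highest in WT replicate 3. Ly6g had 0, 2 and 1 reads in C59A, 0, 0 and 2 in C59S and 0, 1 and 7 in WT. Camp had 2, 0 and 0 reads in C59A, 1, 1 and 0 in C59S and 0, 1 and 3 in WT. Ngp had at most 2 reads in any library. Mmp8, Ly6g, Ngp and Camp were not tested. Whether the marker level and the Cxcr2 level are linked was not tested.

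Cxcr4, the receptor of Cxcl12, stood at 3.98, 4.58 and 2.9 CPM in C59A, at 6.63, 6.98 and 9.84 CPM in C59S and at 3.66, 4.67 and 7.19 CPM in WT. C59A lay below C59S in every library and overlapped with WT. Its log2 fold change in C59A against C59S was -1.03 ± 0.29 (edgeR adjusted p = 0.0608), which passed with DESeq2 (0.0137), with voom (0.031), without the filter on low counts (0.0133), with the 2 genotypes fitted alone (0.0354) and without WT replicate 3 (0.0319). Ackr3, the atypical receptor that scavenges Cxcl12, was far more abundant, at 9.47 FPKM against 3.06 FPKM on average over the 9 libraries. Ackr3 stood at 41.1, 32.5 and 32.5 CPM in C59A, at 27.4, 36.4 and 19.5 CPM in C59S and at 34.9, 28.8 and 35.9 CPM in WT. Its log2 fold change was 0.35 ± 0.20 in C59A against C59S, opposite in sign to those of Cxcr4 and of Cxcl12 (-0.46 ± 0.33), and none of the 3 passed in edgeR.

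Cx3cr1, the fractalkine receptor of resident macrophages, stood at 3.86, 10.6 and 6 CPM in C59A, at 6, 12.1 and 9.3 CPM in C59S and at 3.91, 5.02 and 5.95 CPM in WT. C59S lay just above WT without overlap, its lowest library (6 CPM) next to the highest of WT (5.95 CPM), with a log2 fold change of 0.88 ± 0.36 (edgeR adjusted p = 0.24). Several coding genes overlap the long span of Cx3cr1, Gorasp1, Wdr48, Csrnp1, Xirp1 and Ttc21a among them. Cxcr6, the receptor of Cxcl16 on T and NK cells, and Xcr1, of cross-presenting dendritic cells, overlapped between all genotypes. Their log2 fold changes in C59A against C59S were -0.44 ± 0.46 and -1.17 ± 0.65. Xcr1 ran from 5 reads in C59A replicate 2 to 65 in C59S replicate 2.

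The other atypical receptors gave mixed signs. Ccrl2, which presents the attractant chemerin without signalling, stood at 3.98, 4.13 and 4.76 CPM in C59A, at 6.6, 9.46 and 11.7 CPM in C59S and at 6.06, 3.17 and 8.57 CPM in WT. C59A lay below C59S in every library, with a log2 fold change of -1.10 ± 0.33 (edgeR adjusted p = 0.0752). It passed with DESeq2 (0.0206), with voom (0.0431), without the filter (0.0284), with the 2 genotypes fitted alone (0.0244) and without WT replicate 2 or 3 (0.0235 and 0.0396). Ackr2, which degrades inflammatory CC ligands, stood at 1.45, 1.62 and 2.63 CPM in C59S, against 1.01, 0.955 and 1.24 CPM in WT. These groups did not overlap, with a log2 fold change of 0.81 ± 0.38 (edgeR adjusted p = 0.286). Ackr4, which scavenges Ccl19, Ccl21 and Ccl25, was lower in C59S on average, with a log2 fold change of -0.94 ± 0.47 against WT (edgeR adjusted p = 0.311). Ackr1, of venular endothelium and red cells, was not tested and had 1, 0 and 1 reads in C59A, 3, 5 and 14 in C59S and 0, 1 and 1 in WT.

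Members whose groups did not overlap were counted beside the share of all genes. C59A lay above WT for Ccl8 and Cxcr2 (2 of 37, beside 12.6% of genes) and below it for Ccl27a, Ccr10 and Ccr7 (3 of 37, beside 12%). C59S lay above WT for 6 of 37, which is 16.2%, beside 11.2% (Ackr2, Ccl11, Ccl3, Ccl8 and Cx3cr1 among them), and below it for none (beside 11.3%). C59A lay above C59S for Cxcr2 (1 of 37, beside 14.7%) and below it for Ccl27a, Ccrl2, Cxcl9 and Cxcr4 (4 of 37, or 10.8%, beside 14.5%). Ccl8, Ccl11 and Cxcr2 passed the filter through knock-in libraries alone. The counts above WT, and that of Cxcr2 above C59S, therefore include genes selected where they are high.

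**Figure D4:**
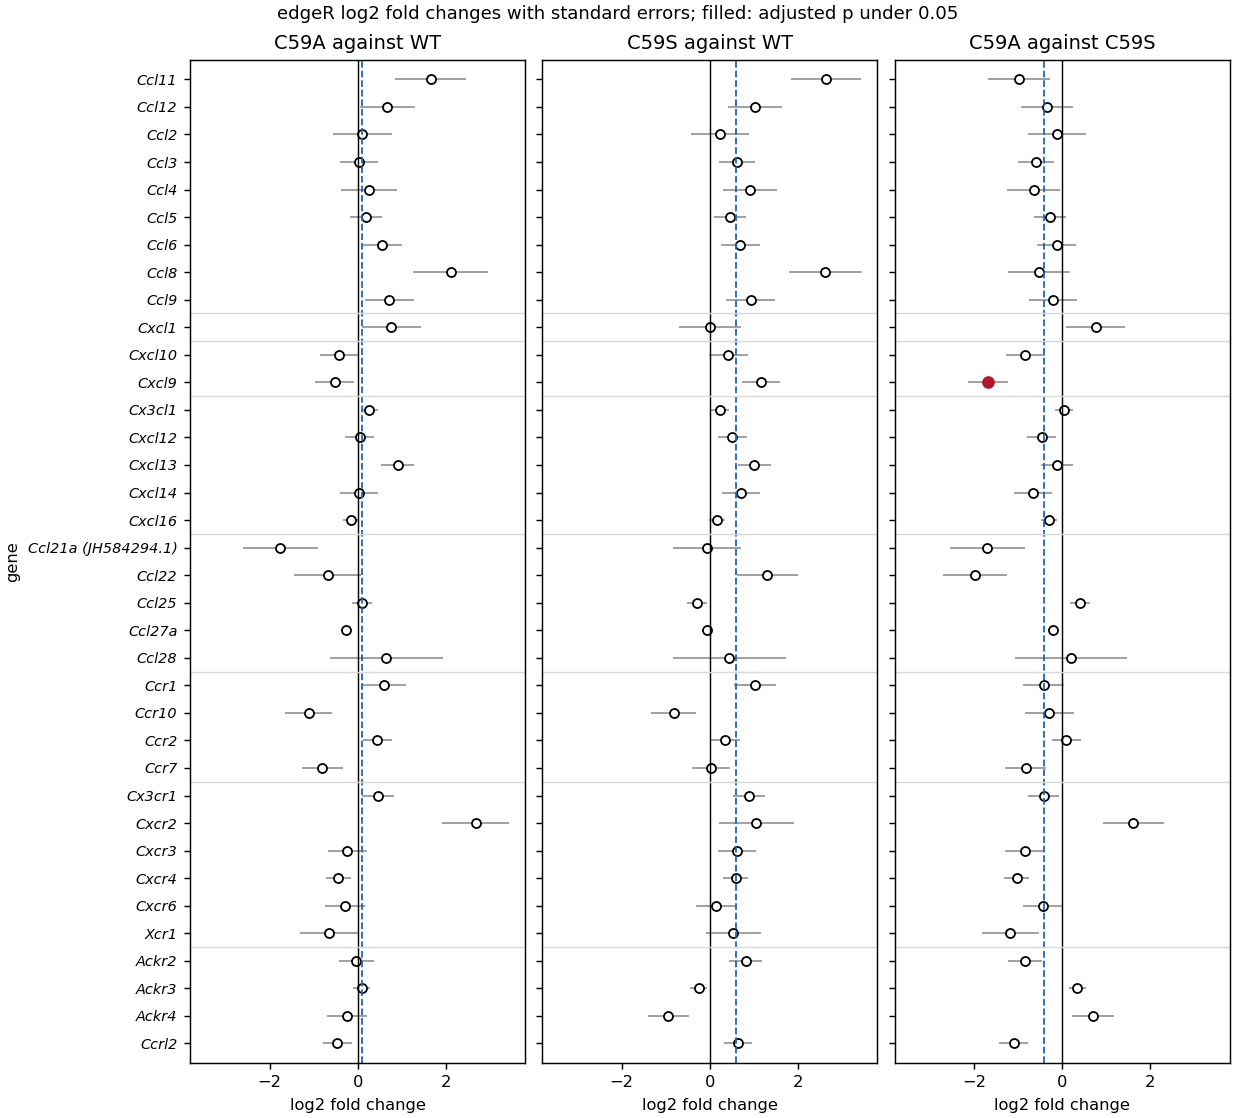
edgeR log2 fold changes with standard errors for 36 of the 37 tested genes, grouped by role, in C59A against WT, C59S against WT and C59A against C59S. The filled point is the 1 gene with an adjusted p under 0.05, Cxcl9 in C59A against C59S, and dashed lines mark the medians over the 37 (0.09, 0.59 and -0.42).

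Among 33 tested genes of G protein coupling and receptor regulation downstream of the receptors, 1 rose and 1 fell in C59A against WT, beside 5.7% of all genes called. Gnai1, an inhibitory G protein subunit through which chemokine receptors signal, rose to 50.7, 56.4 and 60.2 CPM in C59A libraries, against 25.7, 32 and 26.9 CPM in WT, a log2 fold change of 0.99 ± 0.13 (edgeR adjusted p = 0.00149). It stood at 41.1, 33.5 and 35.4 CPM in C59S, below every C59A library, and its log2 fold change in C59A against C59S was 0.61 ± 0.13 (edgeR adjusted p = 0.0205). The call against WT held in every alternative, and that against C59S was lost without C59A replicate 3 (0.0819) or C59S replicate 2 or 3 (0.0846 and 0.093) and with library totals alone (0.0905). Grk3, a kinase that marks activated receptors for desensitisation, fell in C59A against WT by 0.66 ± 0.15 on the log2 scale (edgeR adjusted p = 0.0223), and was lost without C59A replicate 1 or 3 (0.0767 and 0.0936) or WT replicate 1 or 3 (0.0743 and 0.0631). None of the 33 passed in C59S against WT in edgeR or voom and 1 did in DESeq2, with 6 of 33 at an unadjusted p under 0.05 in edgeR (18.1% of all genes), where Grk5 (0.81 ± 0.22, edgeR adjusted p = 0.142) and Gnb1 (0.40 ± 0.13, edgeR adjusted p = 0.176) came nearest.

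Of 10 tested chemokines outside the name rule and enzymes that shed or trim chemokines, 1 rose and 1 fell in C59A against WT, beside 5.7% of all genes called. Cmtm6, a membrane protein of the chemokine-like factor family that stabilises PD-L1, stood at 110, 144 and 138 CPM in C59A, at 85.7, 74.6 and 81.6 CPM in C59S and at 69.3, 59.5 and 53.5 CPM in WT. The C59A libraries were above all others, and the log2 fold change against WT was 1.10 ± 0.14 (edgeR adjusted p = 0.00124). Dpp4, a brush-border peptidase that trims and inactivates several chemokines, stood at 53.4, 42.8 and 53.7 CPM in C59A, at 68.1, 93.3 and 78.2 CPM in C59S and at 77.3, 79.5 and 86.4 CPM in WT. It fell in C59A against WT by 0.70 ± 0.14 on the log2 scale (edgeR adjusted p = 0.0146). Both also passed in C59A against C59S, Cmtm6 at 0.70 ± 0.14 and Dpp4 at -0.68 ± 0.14 (edgeR adjusted p of 0.0164 and 0.0188). Those calls were lost without C59S replicate 2 or 3, without C59A replicate 3 for Cmtm6 and without C59A replicate 1 for Dpp4 (adjusted p of 0.0611 to 0.0741 in edgeR). None of the 10 passed in C59S against WT in edgeR or voom and 1 did in DESeq2, with 5 of 10 at an unadjusted p under 0.05 in edgeR (18.1% of all genes). Pf4, the platelet CXC ligand that the name rule does not match, came nearest there, at 1.19, 2.57 and 2.49 CPM in C59S, against 0.757, 0.804 and 0.571 CPM in WT (log2 fold change 1.53 ± 0.38, edgeR adjusted p = 0.13).

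Of 12 tested leukocyte adhesion genes, 1 rose in C59A against WT (5.7% of all genes were called), none passed in C59S against WT in edgeR, and 2 were lower in C59A than in C59S (5.91% of all genes were called). In C59S against WT 4 of 12 had an unadjusted p under 0.05 in edgeR (18.1% of all genes), DESeq2 called 3 and voom 0. Itgam, an integrin chain of neutrophils and macrophages, stood at 5.37, 6.56 and 3.38 CPM in C59A, at 1.64, 3.11 and 3.77 CPM in C59S and at 2.19, 1 and 1.67 CPM in WT. It rose in C59A against WT by 1.64 ± 0.39 on the log2 scale (edgeR adjusted p = 0.0317), a call that was lost without C59A replicate 1 or 2 or any 1 WT library (adjusted p of 0.0525 to 0.0942 in edgeR) and on either FPKM scale (0.0702 and 0.079). Icam2 and Pecam1, adhesion molecules of endothelium, were lower in C59A than in C59S, with log2 fold changes of -0.97 ± 0.23 and -0.92 ± 0.22 (edgeR adjusted p of 0.0309 and 0.0397). Icam2 stood at 9.71, 11.1 and 10.2 CPM in the C59A libraries, against 16.2, 21 and 24 CPM in C59S. Both were lost without C59A replicate 1 or 3, C59S replicate 2 or 3 or WT replicate 1, and Pecam1 also without C59A replicate 2 (adjusted p of 0.0512 to 0.151 in edgeR). Both were also lost on either FPKM scale (0.0579 to 0.0718).

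The replicate numbers of the titles went together in C59S and WT, and a fit with that number as a block changed the count of calls there. With the block and only the 6 libraries of the 2 genotypes, 638 of all genes were called in C59S against WT, against 0 without it and 0 with the block in all 9 libraries. None of the chemokine or receptor genes was among the 638.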

How the data were processed

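RNA of 9 kidney libraries was prepared with TRIzol and the NEBNext Ultra kit, per the labels. The submitters' processing notes name the tools featureCounts 1.5.0-p3, HISAT2 2.0.5, fastp, CASAVA 1.8 and DESeq2 1.20.0 and the build GRCm38, with no role or order. The counts are raw whole numbers per gene as deposited. The FPKM values are the authors' own, per kilobase of gene length. The library size they imply was 0.802 (C59S replicate 3) to 1.15 (WT replicate 1) times the counted reads. They are thus not plain values per 1000000 counted reads, and how they were scaled is not given in the sources used here. Strand setting, annotation release and handling of reads with several matches are not given in the sources used here.

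Genes were kept by edgeR's filterByExpr (17114), scaled by TMM (factors 0.797 to 1.12) and fitted in 1 model of all 9 libraries with edgeR 4.0.16 (quasi-likelihood, robust) in R 4.3.3. P-values were adjusted by Benjamini-Hochberg over all tested genes, with calls at 0.05. Log2 fold changes carry standard errors, taken as the absolute fold change divided by the square root of its quasi-likelihood F statistic. CPM values are TMM-scaled. A floor of 3 counts was 0.112 to 0.202 CPM, and covers counting error only. Folds of genes with few reads depend on edgeR's default prior count. A prior count of 2 was used only for the log2 CPM of the pairing check. The fit was tested on simulated data. No 2 libraries of a genotype were duplicates (chi-square per degree of freedom of 24 to 134).

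The members, the lists of roles, pathway genes and markers, and the tests were chosen with earlier results of these data known. Genes named for a comparison were the 6 members with the smallest p and, by level, the 10 with the highest mean FPKM, plus members that show a role's range. The values of 1 member are not reported here. For each pathway list the called genes and the 2 with the smallest p were named. All 68 members were in GENCODE M21, 67 with the same coordinates (Ccr6 differed). Promoter sequences are from RefSeq, GRCm38.p6.

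The title numbers were checked for pairing as the correlation, over genes, of same-numbered libraries' deviations from their group means. It was 0.318, 0.195 and 0.256 for C59S and WT, which counts as paired from the data alone, since no label says what a number shares. It was 0.0149, -0.0944 and 0.0491 for C59A and WT, and -0.0853, -0.288 and 0.0499 for C59A and C59S. Between C59S and WT, libraries with different numbers ran from -0.25 to 0.0085. Elsewhere such libraries reached 0.294 (C59A replicate 2 and C59S replicate 1) and 0.248 (C59A replicate 3 and C59S replicate 2). Values of this size thus also arise without a shared number, and the pairing of C59S and WT is uncertain. The numbers in the deposited column names also mostly differ from those of the titles. Alternatives were RLE factors, library totals alone, no filter, 1 CPM in 3 libraries, DESeq2 1.42.0, limma 3.58.1 voom with quality weights, the 2 genotypes alone, a replicate block with all 9 or the 6 libraries, limma on the log2 FPKM with a pseudocount of 1 or 0.1 (mean FPKM of at least 0.5), no mitochondrial genes, and leaving out each of the 9 libraries.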

Additional observations from a re-analysis of the deposited data

How the results depend on the processing

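Over 21 alternatives no fold change chosen by the rule on small p turned its sign. Of these 18 values, 13 kept their side of the threshold in every alternative that gave a value. Cxcl9 in C59A against C59S was lost in 13, and Cxcr2 (C59A against WT), Ccl11 (C59S against WT), Ccrl2 and Cxcr4 (C59A against C59S) were gained in 3, 1, 6 and 5. The cause was not tested.

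In C59A against WT, 975 genes were called, 1552 with DESeq2, 390 with the replicate block of 6 libraries, and 502 to 934 when a replicate was left out, the lowest without C59A replicate 3 (536 without C59A replicate 1, 530 without WT replicate 1). Of the chemokine and receptor genes 0 were called, 1 with DESeq2 and with voom, and 0 to 1 when a replicate was left out.

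In C59S against WT, 0 genes were called, 20 with library totals alone, 308 without the filter, 636 with DESeq2 and 638 with the replicate block of 6 libraries. Leaving out a replicate gave 0 to 737, with 737 without WT replicate 3, 33 without C59S replicate 1 and 1 without C59S replicate 2. Of the chemokine and receptor genes 0 were called, and 1 with DESeq2.

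In C59A against C59S, 1012 genes were called, 670 with library totals alone, 1731 with DESeq2, 1774 with voom, 334 with the replicate block of 6 libraries, 657 with log2(FPKM + 1), 670 with log2(FPKM + 0.1), and 318 to 1307 when a replicate was left out (370 and 405 without C59A replicates 1 and 3, 433 and 318 without C59S replicates 2 and 3). Of the chemokine and receptor genes 1 was called, 3 without the filter, with DESeq2 and with voom, 2 with the 2 genotypes alone, and 0 with RLE factors, the replicate block of 6 libraries, either FPKM scale or no mitochondrial genes. It was 0 to 3 when a replicate was left out.

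In C59A against WT and C59A against C59S the title numbers did not pair the samples, and the replicate block in all 9 libraries gave 1004 and 968 calls. With library totals alone, 20% of 1078 calls were higher in C59A against WT, against 56.8% with TMM, and 47% against 56.7% in C59A against C59S. With 3 libraries a group and many members under 20 reads a library, depth limits what was detectable, and 31 of 68 rows were not tested.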
